A study of Mus musculus with 3264 samples.

Results

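The 38 genes described here serve the defence of mouse cells against oxidants: the glutathione and thioredoxin systems, the enzymes that remove superoxide and peroxides, the NADPH supply, and the sensor and regulators of the response. They were taken by name from a list that was chosen with earlier results of these data known. All were found, as 38 of the 24781 gene rows of the cell line table. Their transcripts were counted in plate wells that were each meant to receive 1 mouse cell. The cells came from a mixture of hematopoietic progenitor (HPC), T and leukemia cell lines, all murine, or were C57BL/6J blood mononuclear cells (PBMC). The labels give the lines no name and no strain, and no treatment other than the isolation. Time-lapse wells (16 plates) were filled by ALPS, an isolation method the labels name only by that abbreviation, after imaging, and random wells (4 plates) by ALPS with no choice of cell. Target wells (4 plates) were filled by ALPS for a named line, and FACS wells (2 plates) by flow sorting for a named line. The 8 PBMC plates were filled by ALPS after time-lapse imaging. How long cells were kept before or during imaging is not given in the sources used here.

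KEAP1 binds the transcription factor NRF2 (gene Nfe2l2) and marks it for degradation, and oxidants or electrophiles that modify KEAP1 let NRF2 accumulate. NRF2 with a small MAF protein then activates genes that carry antioxidant response elements in their promoters or enhancers, whereas BACH1 represses the same elements until heme releases it. Glutathione is made from cysteine, glutamate and glycine. Glutathione and thioredoxin are kept reduced with NADPH, and both feed peroxidases and repair enzymes.

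The cell line table held 1836 wells, with totals from 10004.8 to 140363 counts (median 38156). Target wells were taken by label. By profile, the correlation with the mean of each label over 8706 genes other than the members, all target wells matched their label except 3 HPC-labelled wells on target plate 4, of which 1 matched T and 2 matched leukemia. The FACS labels did not hold, since only 13 of 45 HPC-labelled wells matched HPC, so FACS, random and time-lapse wells were assigned by profile. A line had from 52 wells (FACS HPC) to 430 wells (time-lapse leukemia), and from 6 to 44 wells on a plate. Time-lapse wells nearest the T profile went against that name in part: none fell in the cluster of the T line, and their 5 T line markers summed to 471.4 to 818.03 CPM per plate, against 1670.5 to 1746 CPM in random T wells, with Thy1 at 5.84 CPM against 661.4 CPM over all such wells. They are called T-profile wells here. Time-lapse HPC wells kept all 7 HPC markers (1894 to 2819.5 CPM per plate, against 2296 to 2506 CPM in random HPC wells), although all but 3 fell in another cluster than the one that held all but 2 of the random HPC wells. A sample is a single well, and no label ties wells to an animal or a culture, so a group has n = 1 and no test was possible. Plates are batches of wells, and ranges over plates and exact intervals cover technical spread and counting error only. Time-lapse, random and FACS wells share no plate with other groups, so isolation and plate cannot be told apart in those comparisons.

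Promoter sequence is shown for 4 members that stood higher in time-lapse HPC wells, because NRF2 and BACH1 act through short promoter elements. The sequences are the 250 bases before the RefSeq start on GRCm38.p6 (the mm10 build), all on the plus strand: Srxn1 at chr2:152105274-152105523, Gclm at chr3:122245307-122245556, Prdx1 at chr4:116685349-116685598 and 1 of 3 Txnrd1 starts at chr10:82858956-82859205. Capitals mark matches to TGANNNNGC on either strand, so a match on the minus strand reads GCNNNNTCA.
Srxn1: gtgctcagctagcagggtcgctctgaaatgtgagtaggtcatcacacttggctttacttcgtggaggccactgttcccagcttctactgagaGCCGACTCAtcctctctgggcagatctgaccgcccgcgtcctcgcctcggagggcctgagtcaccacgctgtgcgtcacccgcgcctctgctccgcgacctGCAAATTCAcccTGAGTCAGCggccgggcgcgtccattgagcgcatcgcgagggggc
Gclm: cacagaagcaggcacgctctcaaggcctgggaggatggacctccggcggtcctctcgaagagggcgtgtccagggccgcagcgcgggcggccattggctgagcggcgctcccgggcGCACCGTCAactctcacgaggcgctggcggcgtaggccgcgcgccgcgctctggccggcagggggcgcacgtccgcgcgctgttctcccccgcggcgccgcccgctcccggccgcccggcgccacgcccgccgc
Prdx1: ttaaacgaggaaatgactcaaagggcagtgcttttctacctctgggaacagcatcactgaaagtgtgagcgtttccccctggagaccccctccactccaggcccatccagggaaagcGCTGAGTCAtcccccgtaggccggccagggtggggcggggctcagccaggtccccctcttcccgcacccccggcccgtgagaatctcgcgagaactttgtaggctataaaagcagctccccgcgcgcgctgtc
Txnrd1: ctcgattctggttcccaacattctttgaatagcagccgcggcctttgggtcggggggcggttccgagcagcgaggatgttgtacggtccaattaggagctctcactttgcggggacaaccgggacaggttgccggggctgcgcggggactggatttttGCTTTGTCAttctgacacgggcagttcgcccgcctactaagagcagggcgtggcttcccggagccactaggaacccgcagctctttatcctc
The matches begin at -158, -57 and -45 from the start in Srxn1, at -134 in Gclm, at -133 in Prdx1 and at -92 in Txnrd1. In windows of 250 bases before to 50 after a start, TGANNNNGC lay in 45.05% of 27025 genes and in 18 of the 32 members with an entry. The stricter TGACNNNGC, each match of which is also a match to TGANNNNGC, lay in 13.99% of genes and in 10 of 32 members: Srxn1, Gclm, Txnrd1, Prdx1, Pgd and Nfe2l2, and also Mgst1, Sod1, G6pdx and Me1. In Srxn1 that match lies at 29 past the start, outside the stretch printed. Of the 10 members that stood higher in time-lapse HPC wells, 8 have an entry (Hmox1 and Gclc do not) and 6 of those hold TGACNNNGC. The others, Cat and Bach1, hold neither motif, and the 4 promoters printed are all of members with a match. These are letters in a window, not measured binding.

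Among the 3 lines in target wells, the T line held the most Nqo1, Blvrb, Osgin1 and Gclm, the HPC line held the most Gpx1, Srxn1 and Gsto1 and the least Gss and Gsr, and the leukemia line held the most Slc7a11 and Txnip and almost no Hmox1 or Gsto1. A member was called where its mean log2 (CPM + 1) difference over plates was at least 1 (2-fold), on the same side on every plate, with at least 10 CPM in 1 group. In T against leukemia wells 11 of 35 measured members were called higher, beside 14.8% of all 8263 genes, and 2 lower, beside 12.2%. In HPC against leukemia wells 7 of 32 were called higher (13.1% of all genes) and 6 lower (12.7%). In HPC against T wells 4 of 36 were called higher (13.2% of all genes) and 12 lower (15.3%). The median difference of the measured members was 0.49, -0.07 and -0.53 in these comparisons, and that of all genes 0.01, -0.12 and -0.12. Measured, here and below, means at least 10 CPM in 1 group, so a gene can enter through its higher group alone.

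Hmox1, Nqo1, Srxn1, Blvrb, Osgin1 and Abcc1 were grouped here as NRF2 and BACH1 targets. In T against leukemia wells 4 of 5 measured were called higher (14.8% of all genes). In HPC against T wells 3 of 6 were called lower (15.3% of all genes) and 1 higher (13.2%). The counts cover this group only. Among members grouped elsewhere, Gclm was called higher and Slc7a11 lower in T than in leukemia wells, and Gclc, Txnrd1 and Prdx1 were not called. Hmox1, heme oxygenase 1, which degrades heme to biliverdin, iron and carbon monoxide, had 28.8, 8.45, 20.01 and 49.8 CPM in HPC wells, 45.5, 34.5, 48.5 and 55.7 CPM in T wells and 0, 0, 0 and 0.948 CPM in leukemia wells on target plates 1 to 4. T and HPC plates overlapped each other and stood above every leukemia plate, by a log2 difference of 5.30 ± 0.36 for T and 4.31 ± 0.74 for HPC (SD over 4 plates). As the leukemia wells held 1 Hmox1 count in all, the ratio of T to leukemia, 198.4-fold, carries an exact counting interval of 35.3 to 7873, and that of HPC to leukemia, 113.6-fold, one of 19.7 to 4553. Nqo1, a quinone reductase and common NRF2 target, had 0, 0, 0 and 3.02 CPM in HPC wells, 41.2, 21.02, 20.5 and 47.8 CPM in T wells and 1.69, 0, 6.07 and 4.74 CPM in leukemia wells. Its T plates overlapped neither other line (HPC minus T -4.47 ± 0.74, T minus leukemia 3.28 ± 1.25). Srxn1, sulfiredoxin, which repairs overoxidized peroxiredoxins, had 15.2, 11.3, 14.6 and 10.6 CPM in HPC wells, 0, 1.68, 0 and 0 CPM in T wells and 0, 0, 0 and 0 CPM in leukemia wells. It was the only member of this role that was called higher in HPC than in T wells (3.43 ± 0.85), from 32 counts against 2, and it was at least 18.1-fold higher in HPC than in leukemia wells, which held no count and were set to 3 counts in all. Blvrb, biliverdin reductase B, had 8.47, 5.63, 7.28 and 10.6 CPM in HPC wells, 65.3, 70.2, 74.4 and 67.01 CPM in T wells and 5.07, 5.81, 9.10 and 9.48 CPM in leukemia wells, with the T plates above all others (HPC minus T -2.99 ± 0.39, T minus leukemia 3.11 ± 0.37). Osgin1, an NRF2-responsive growth inhibitor, had 5.08, 1.41, 1.82 and 12.1 CPM in HPC wells, 17.2, 16.8, 24.8 and 33.8 CPM in T wells and 4.23, 1.94, 11.1 and 9.48 CPM in leukemia wells. Its T plates again stood above both other lines (HPC minus T -2.27 ± 0.90, T minus leukemia 1.81 ± 0.62). Abcc1, which exports glutathione conjugates, was not called, with differences of 0.21, -0.21 and 0.42 for HPC minus leukemia, HPC minus T and T minus leukemia.

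Glutathione synthesis split the lines differently for each gene. Gclm, the modifier subunit of glutamate cysteine ligase, had 30.5, 30.3, 40.02 and 45.3 CPM in HPC wells, 171.8, 180.8, 269.05 and 280.995 CPM in T wells and 32.5, 43.5, 58.1 and 54.02 CPM in leukemia wells. HPC and leukemia plates overlapped, and the T plates stood above both (HPC minus T -2.58 ± 0.11, T minus leukemia 2.24 ± 0.16). Its catalytic partner Gclc was not called between any lines (-0.08 for HPC minus leukemia, 0.28 for HPC minus T and -0.36 for T minus leukemia). Gss, glutathione synthetase, which adds glycine in the last step, had 6.77, 14.1, 5.46 and 16.6 CPM in HPC wells, 52.4, 39.5, 40.98 and 48.1 CPM in T wells and 50.7, 47.9, 47.02 and 46.4 CPM in leukemia wells, so that the HPC plates stood below both other lines (HPC minus T -2.10 ± 0.74, HPC minus leukemia -2.19 ± 0.73). Gsr, glutathione reductase, had 22.01, 16.9, 21.8 and 40.8 CPM in HPC wells, 61.9, 55.5, 72.8 and 107.2 CPM in T wells and 84.5, 82.2, 91.5 and 67.3 CPM in leukemia wells. It too was lower on every HPC plate (HPC minus T -1.54 ± 0.16, HPC minus leukemia -1.71 ± 0.68). Slc7a11, the cystine transporter xCT, had 0, 0, 0 and 18.1 CPM in HPC wells, 26.2, 25.2, 16.2 and 11.9 CPM in T wells and 96.8, 127.2, 94.05 and 123.2 CPM in leukemia wells. Leukemia plates stood above all others (HPC minus leukemia -5.72 ± 2.02, T minus leukemia -2.47 ± 0.59). The 1 HPC plate above 0 is plate 4, the plate with 3 wells of another profile, and without those wells HPC minus leukemia was -6.79 and HPC minus T -4.32.

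Of the genes that use glutathione, 2 of 5 measured members were called higher in T than in leukemia wells (14.8% of all genes). In HPC against leukemia wells 2 of 4 were called higher (13.1% of all genes). None was called lower (12.2% and 12.7% of all genes). Gsto1, glutathione transferase omega 1, had 110.1, 146.4, 122.8 and 116.3 CPM in HPC wells, 56.3, 60.5, 51.8 and 79.6 CPM in T wells and 0, 0.968, 0 and 0 CPM in leukemia wells. The plates of the 3 lines did not overlap. HPC stood above T by just under the 2-fold line, and the leukemia wells held 1 count in all, so that the ratio was 271.9-fold for T to leukemia (48.5 to 10790.4) and 531.5-fold for HPC to leukemia (94.9 to 21093). Gpx1, glutathione peroxidase 1, which reduces hydrogen peroxide, had 1382.97, 1406.6, 1267.9 and 1132.3 CPM in HPC wells, 261.3, 265.05, 426.2 and 404.3 CPM in T wells and 173.3, 172.2, 139.6 and 178.2 CPM in leukemia wells. Every HPC plate stood above every T plate (1.96 ± 0.51) and every leukemia plate (2.96 ± 0.22). Gstm1, glutathione transferase mu 1, had 1.69, 0, 0 and 0 CPM in HPC wells, 25.8, 32.8, 14.02 and 20.6 CPM in T wells and 0.845, 0, 2.02 and 1.90 CPM in leukemia wells. T plates stood above both other lines (HPC minus T -4.18 ± 0.75, with 1 count in all HPC wells, and T minus leukemia 3.54 ± 1.21). Gstp1, glutathione transferase pi 1, had 76.2, 66.4, 30.01 and 65.9 CPM in HPC wells, 151.7, 162.3, 118.1 and 125.9 CPM in T wells and 105.3, 89.02, 86.3 and 84.4 CPM in leukemia wells and was called lower in HPC than in T wells (HPC minus T -1.28 ± 0.47), but 51.9% of its positive values were not whole numbers and Gstp2 is a near copy of it, so its level is uncertain. Gpx4, which reduces lipid hydroperoxides, was not called (HPC minus leukemia -0.39, HPC minus T -0.54, T minus leukemia 0.15). Gsta4 averaged under 10 CPM in every line of target wells and Mgst1 was at 0 in every cell line group.

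In the thioredoxin system the clearest contrast was Txnip, the protein that binds and inhibits thioredoxin and limits glucose uptake. It had 32.2, 26.7, 43.7 and 72.5 CPM in HPC wells, 6.01, 9.25, 10.8 and 12.6 CPM in T wells and 95.1, 107.4, 73.8 and 95.7 CPM in leukemia wells. T plates stood below both other lines (HPC minus T 2.01 ± 0.44, T minus leukemia -3.17 ± 0.51), and HPC plates were lower than leukemia plates on every plate (HPC minus leukemia -1.16 ± 0.72), a call that was lost without target plate 2. Txn1, thioredoxin itself, had 451.3, 483.8, 384.7 and 594.6 CPM in HPC wells, from 1073.5 to 1306.9 CPM in T wells and 443.7, 448.02, 478.3 and 530.7 CPM in leukemia wells, with T plates above the rest (HPC minus T -1.32 ± 0.17, T minus leukemia 1.32 ± 0.13). Txnrd1, thioredoxin reductase 1, had 162.6, 161.2, 181.9 and 215.1 CPM in HPC wells, 106.8, 94.8, 300.05 and 328.1 CPM in T wells and 227.3, 190.6, 278.6 and 251.6 CPM in leukemia wells and was not called. Among peroxiredoxins, the peroxidases that thioredoxin recharges, the line with the highest level differed by gene. Prdx2 had 260.8, 257.9, 221.9 and 227.98 CPM in HPC wells, 126.3, 98.8, 71.2 and 90.9 CPM in T wells and 119.2, 141.3, 98.6 and 113.3 CPM in leukemia wells, highest on all HPC plates (HPC minus T 1.34 ± 0.24, HPC minus leukemia 1.04 ± 0.13, the last call lost without target plate 3). Prdx4, the peroxiredoxin of the endoplasmic reticulum, had 84.7, 66.2, 61.8 and 101.2 CPM in HPC wells, 275.8, 228.9, 216.7 and 232.6 CPM in T wells and 206.6, 211.4, 145.6 and 209.9 CPM in leukemia wells and was lower on all HPC plates (HPC minus T -1.61 ± 0.28, HPC minus leukemia -1.30 ± 0.26). Prdx5 had 64.3, 83.05, 80.04 and 72.5 CPM in HPC wells, 206.2, 158.9, 151.5 and 177.3 CPM in T wells and 103.95, 71.6, 67.2 and 74.9 CPM in leukemia wells, highest on all T plates (HPC minus T -1.196 ± 0.36, T minus leukemia 1.13 ± 0.11). Prdx1 had 522.9, 515.2, 373.8 and 567.7 CPM in HPC wells, 519.8, 477.96, 444.3 and 634.5 CPM in T wells and 691.9, 608.6, 610.1 and 629.3 CPM in leukemia wells and was not called, nor were Prdx3 and Prdx6.

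**Figure D1:**
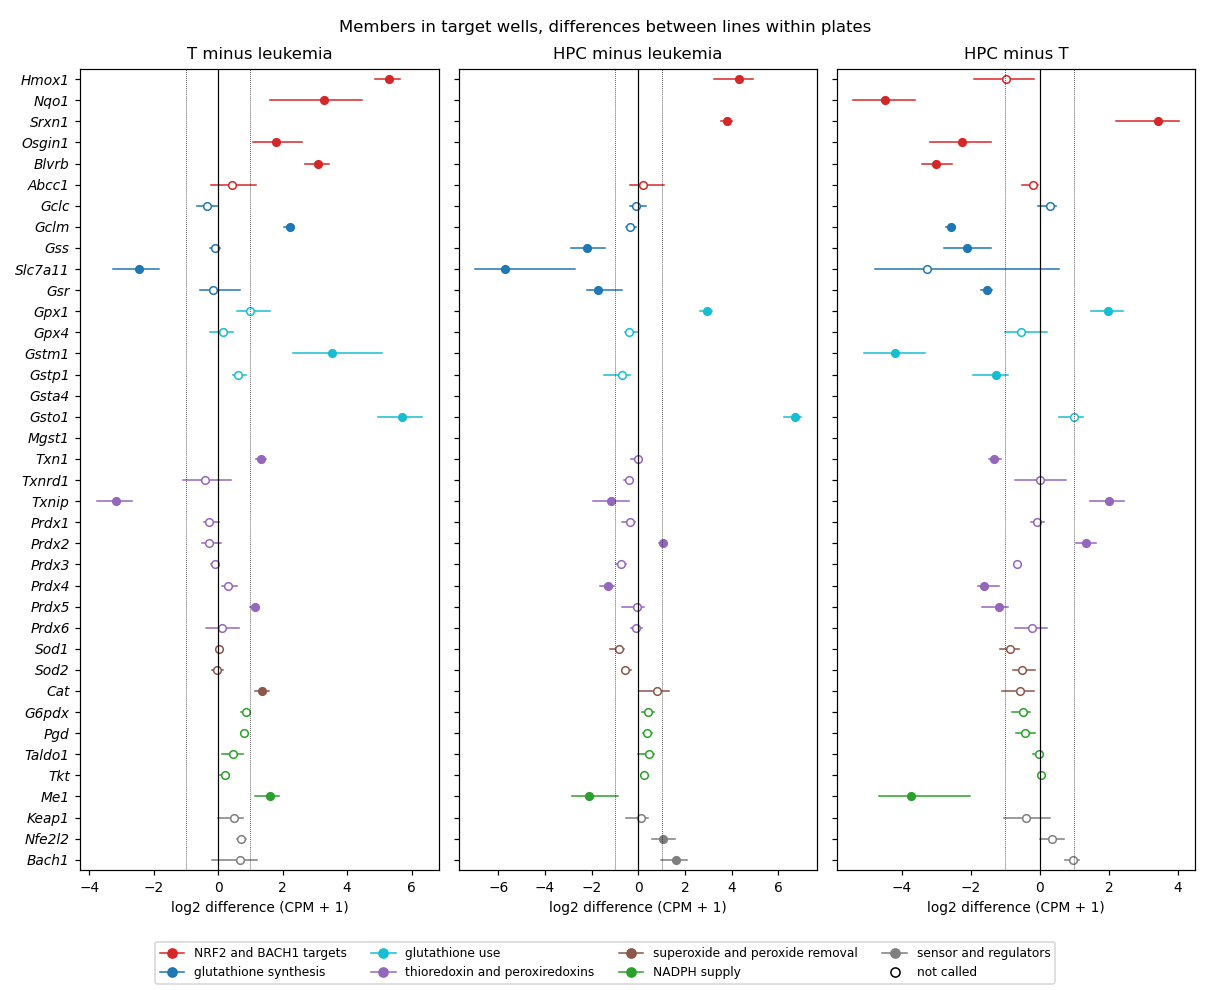
Mean log2 (CPM + 1) difference of each member between lines in target wells, with bars from the lowest to the highest of 4 plates, in panels for T minus leukemia, HPC minus leukemia and HPC minus T; filled dots are called, dotted lines mark 2-fold and colours mark roles. Gsto1 reaches 6.71 in HPC minus leukemia, Slc7a11 -5.72 in the same panel, and Nqo1 -4.47 in HPC minus T.

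Cat, catalase, had 89.7, 94.3, 105.5 and 63.03 CPM in HPC wells, 140.5, 122.7, 119.7 and 137.3 CPM in T wells and 46.1, 51.3, 42.5 and 61.6 CPM in leukemia wells, and its T plates stood above its leukemia plates (T minus leukemia 1.36 ± 0.20). The superoxide dismutases Sod1 and Sod2 were not called in any line comparison, with differences from -0.86 to 0.02 for Sod1 and from -0.57 to -0.06 for Sod2. Of the NADPH-supplying members 1 of 5 was called: Me1, malic enzyme, had 1.69, 1.41, 3.64 and 15.1 CPM in HPC wells, 58.4, 59.7, 62.5 and 64.03 CPM in T wells and 15.2, 16.4, 20.2 and 28.4 CPM in leukemia wells. The T plates were highest and the HPC plates lowest throughout (HPC minus T -3.73 ± 1.203, HPC minus leukemia -2.13 ± 0.88, T minus leukemia 1.60 ± 0.33). G6pdx, Pgd, Taldo1 and Tkt of the pentose phosphate pathway were not called. Nfe2l2, encoding NRF2, had 55.9, 53.5, 72.8 and 61.9 CPM in HPC wells, 55.8, 53.4, 44.2 and 38.5 CPM in T wells and 37.2, 30.96, 23.8 and 24.6 CPM in leukemia wells and was called higher in HPC than in leukemia wells (1.05 ± 0.46), a call lost without target plate 3, without target plate 4, or with 5 CPM added in place of 1. Bach1, the repressor, had 40.6, 45.04, 65.5 and 58.9 CPM in HPC wells, 20.6, 26.9, 29.1 and 29.2 CPM in T wells and 13.1, 11.1, 33.4 and 13.3 CPM in leukemia wells and was also called higher in HPC than in leukemia wells (1.63 ± 0.50). Keap1 was not called (0.10 for HPC minus leukemia, -0.39 for HPC minus T, 0.49 for T minus leukemia).

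Of these 42 calls between lines, 42 had the same direction in random wells assigned by profile (36 of them at 2-fold or more), 41 in FACS wells (36 at 2-fold) and 36 in time-lapse wells (24 at 2-fold). Gsto1 HPC minus leukemia was 6.71 in target, 7.14 in FACS, 6.88 in random and 6.01 in time-lapse wells. Gclm HPC minus T was -2.58, -2.43 and -2.80 in target, FACS and random wells but 1.201 in time-lapse wells. Hmox1 turned likewise, with HPC minus T of -0.99, -0.75 and -1.56 in target, FACS and random wells and 2.65 in time-lapse wells. Txnip was the gene whose line differences turned most often. Its T minus leukemia difference was -3.17, -2.31 and -3.13 in the first 3 of these and 0.24 in time-lapse wells. Its HPC minus leukemia difference was not stable between groups, at -1.16 in target, 0.43 in FACS, -1.32 in random and 0.85 in time-lapse wells.

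**Figure D2:**
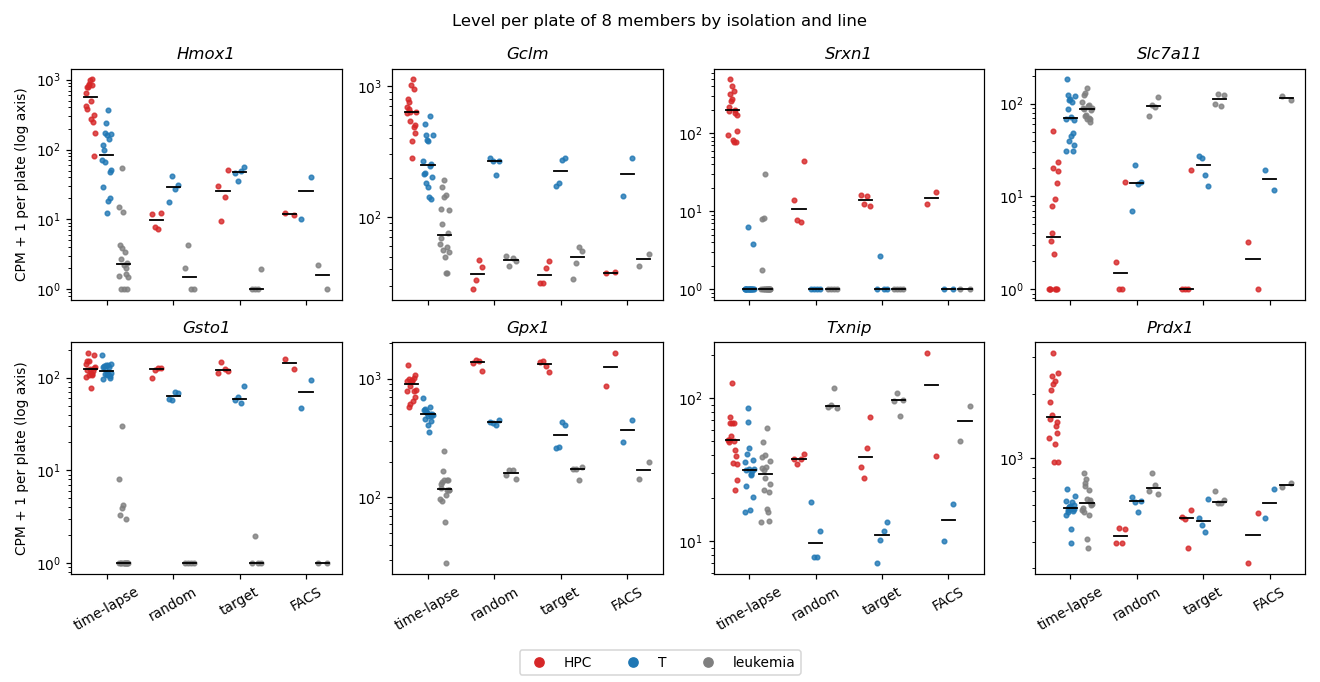
CPM + 1 (log axis) of 8 members on every plate, by isolation (time-lapse, random, target, FACS) and line (HPC, T, leukemia by colour), with a black bar at the median of the plates. Hmox1 and Gclm of the HPC line stand highest in time-lapse wells (medians of 569.6 and 631.3 CPM), and Gsto1 has a median of 0 CPM in leukemia wells of every isolation.

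Target and FACS wells of the same line, the comparison of ALPS with flow sorting, gave no called member in any line. In HPC wells 0 of 30 measured members were called in either direction, beside 2.21% of all genes higher and 3.49% lower. In T wells it was 0 of 36, beside 1.27% higher and 0.782% lower, and in leukemia wells 0 of 30, beside 0.809% higher and 0.835% lower. The widest difference of a measured member was that of Hmox1 in T wells at 1.205 (target minus FACS), with 45.5, 34.5, 48.5 and 55.7 CPM on target plates and 9.03 and 39.4 CPM on FACS plates, which overlapped. Txnip in HPC wells, at -1.11, had 32.2, 26.7, 43.7 and 72.5 CPM on target plates and 205.9 and 38.1 CPM on FACS plates, which overlapped too. The other 4 members followed by plate in every comparison, Gclm, Txnrd1, Prdx1 and Gpx1, were close between these isolations. Gclm had 36.2 and 36.9 CPM in HPC, 144.5 and 278.6 CPM in T and 41.8 and 51.5 CPM in leukemia wells on the 2 FACS plates. Gpx1 had 870.2 and 1643 CPM, 290.2 and 450.1 CPM and 140.9 and 196.03 CPM in the same lines. Each lies within 2-fold of the target values given above, and Txnrd1 and Prdx1 differed by 0.33, -0.07 and -0.02 and 0.24, -0.23 and -0.22 in HPC, T and leukemia wells (target minus FACS). Since the FACS side rests on 2 plates and the rule asks for 2-fold, smaller differences are not addressed.

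After time-lapse imaging the HPC line stood apart. In time-lapse against random HPC wells 10 of 35 measured members were called higher, beside 2.03% of all 8361 genes, and 0 lower, beside 4.47%. The median difference of the measured members was 0.94, against -0.08 over all genes. At least 10 CPM was reached by 35 members in time-lapse and by 29 in random HPC wells. Some members, Hmox1 and Nqo1 among them, thus entered the count and the median only through the group where they are higher. The members and thresholds were also chosen with earlier results of these data known, so these counts describe the list and are no independent support. Hmox1, Gclm, Srxn1 and Gclc, in that order, had the 4 largest differences of the 170 genes called higher. In the T profile 7 of 35 were called higher (6.99% of all genes) and 2 lower (8.26%), and in leukemia wells 1 of 30 higher (0.544%) and 1 lower (0.453%).

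Hmox1 in HPC wells lay between 79.6 and 1019.2 CPM (median 569.6) over the 16 time-lapse plates, against 10.9, 6.76, 6.25 and 11.5 CPM on the 4 random plates. The ranges did not overlap, and the difference was 5.62 (2.69 to 7.14) on the log2 scale, here and below followed by its range over pairs of plates. Target and FACS HPC wells, at 28.8, 8.45, 20.01 and 49.8 CPM and 11.3 and 10.7 CPM, also stood below every time-lapse plate. Srxn1 lay between 76.4 and 494.5 CPM (median 195.1) over the 16 time-lapse plates, against 12.8, 6.76, 6.25 and 42.8 CPM on the 4 random plates, a difference of 3.78 (0.82 to 6.10). The lowest time-lapse plate was thus still above the highest random plate. Nqo1 lay between 1.68 and 113.3 CPM (median 31.2) over the 16 time-lapse plates, against 1.98, 0, 0 and 11.5 CPM on the 4 random plates. The plates overlapped, so that Nqo1 was not called in spite of a difference of 3.88 (-2.23 to 6.84), and Osgin1 (2.26, -0.86 to 4.56) and Abcc1 (1.72, -0.22 to 2.72) overlapped as well.

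Both subunits of glutamate cysteine ligase, the rate-limiting enzyme of glutathione synthesis, were called higher in time-lapse HPC wells. Gclm lay between 281.05 and 1125.3 CPM (median 631.3) over the 16 time-lapse plates, against 27.2, 31.9, 46.2 and 40.4 CPM on the 4 random plates (4.08, 2.58 to 5.32). Gclc lay between 289.8 and 963.5 CPM (median 656.9) over the 16 time-lapse plates, against 56.8, 53.1, 41.9 and 41.2 CPM on the 4 random plates (3.58, 2.33 to 4.52). For both, no time-lapse plate came near the random plates. Gsr, at 1.59 (-0.28 to 2.32), overlapped, Gss had 0.90 (-1.63 to 2.85), and Slc7a11 stayed under 10 CPM in both groups. Among the genes that use glutathione none was called: Gpx1 lay between 578.98 and 1306.4 CPM (median 904.5) over the 16 time-lapse plates, against 1339.1, 1440.5, 1413.6 and 1147.3 CPM on the 4 random plates, overlapping and with a difference of -0.64 (-1.31 to 0.19), and Gstm1 overlapped at 2.18 (-1.26 to 6.54).

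In the thioredoxin system, Txnrd1 lay between 233.6 and 550.6 CPM (median 387.1) over the 16 time-lapse plates, against 174.2, 147.8, 132.5 and 131.8 CPM on the 4 random plates (1.33, 0.42 to 2.05). Prdx1, peroxiredoxin 1, lay between 949.9 and 3130.4 CPM (median 1558) over the 16 time-lapse plates, against 394.99, 465.7, 394.3 and 461.2 CPM on the 4 random plates (1.95, 1.03 to 2.99). Both were called, and neither overlapped, whereas Prdx2 (-0.17, -0.93 to 0.60), Prdx3 (-0.80, -1.71 to 0.23), Prdx5 (-0.91, -1.93 to -0.05) and Txnip (0.39, -0.83 to 1.86) were not called. Txnip had between 21.8 and 125.6 CPM (median 49.5) over the 16 time-lapse plates, against 36.6, 33.8, 36.2 and 39.5 CPM on the 4 random plates. Cat lay between 142.6 and 771.97 CPM (median 513.9) over the 16 time-lapse plates, against 120.8, 76.3, 82.5 and 107.1 CPM on the 4 random plates (2.27, 0.24 to 3.32), while Sod1 (0.72, 0.25 to 0.96) and Sod2 (-0.63, -1.64 to 0.20) were not called. Pgd, phosphogluconate dehydrogenase, an NADPH-producing step of the pentose phosphate pathway, lay between 322.2 and 909.3 CPM (median 626.9) over the 16 time-lapse plates, against 226.8, 212.6, 188.1 and 270.1 CPM on the 4 random plates (1.43, 0.25 to 2.27). Pgd was the only NADPH member called, since Me1 (2.96, -0.16 to 5.07) and G6pdx (1.40, -0.18 to 2.30) overlapped. Of the regulators, Nfe2l2 lay between 82.8 and 244.1 CPM (median 162.8) over the 16 time-lapse plates, against 76.1, 41.5, 61.2 and 60.9 CPM on the 4 random plates (1.44, 0.12 to 2.53), a call lost when CPM was averaged over wells instead of summed. Bach1 lay between 93.96 and 276.7 CPM (median 176.2) over the 16 time-lapse plates, against 35.1, 28.99, 26.2 and 62.6 CPM on the 4 random plates (2.26, 0.58 to 3.35), and Keap1 was not called (0.94, -0.20 to 1.83). The transcript of the activator and that of the repressor thus both stood above all random plates.

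Other measures in the same HPC wells are given beside these genes, and their part in the result was not tested. Metallothioneins summed to 588.3 to 3258 CPM on time-lapse plates and 654.2 to 766.4 CPM on random plates. Immediate early genes summed to 264.5 to 1333.1 CPM on time-lapse plates and 841.1 to 1625 CPM on random plates. Heat shock genes summed to 1883 to 3903 CPM on time-lapse plates and 2238 to 2795 CPM on random plates. The monocyte and macrophage markers, of which all 7 had at least 3 counts in time-lapse and 6 in random HPC wells and none was at 0, summed to 332.6 to 962.1 CPM on time-lapse plates and 742.6 to 984.6 CPM on random plates. The ribosomal transcript Rn45s took a median of 13.6% of counts per well in time-lapse and 9.67% in random HPC wells. Median totals per well were 33682 counts in time-lapse and 29584 counts in random HPC wells.

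Of the 7 members called higher in time-lapse T-profile wells, Bach1, Gclc, Nfe2l2, Txnrd1 and Pgd were also among the 10 called higher in HPC wells, whereas Slc7a11 and Gstm1 were not. Bach1 lay between 91.2 and 274.3 CPM (median 152.6) over the 16 time-lapse plates, against 20.2, 22.8, 20.5 and 21.5 CPM on the 4 random plates (2.78, 1.95 to 3.70). Slc7a11 lay between 29.6 and 182.4 CPM (median 68.5) over the 16 time-lapse plates, against 5.95, 20.8, 12.4 and 13.2 CPM on the 4 random plates (2.41, 0.49 to 4.72). Neither overlapped. Slc7a11 thus stood higher in time-lapse T-profile than in random T wells, and under 10 CPM in HPC wells of both isolations. Gclc, the catalytic ligase subunit, and Nfe2l2 did not overlap either. Gclc lay between 71.7 and 278.6 CPM (median 171.97) over the 16 time-lapse plates, against 45.2, 47.7, 44.6 and 52.5 CPM on the 4 random plates (1.68, 0.44 to 2.61). Nfe2l2 lay between 93.99 and 173.97 CPM (median 125.5) over the 16 time-lapse plates, against 46.4, 46.997, 44.3 and 40.7 CPM on the 4 random plates (1.53, 0.98 to 2.07). Gstm1 (1.25, 0.27 to 2.17), Txnrd1 (1.05, 0.37 to 1.82) and Pgd (1.03, 0.01 to 1.62) were also called higher, the last not without time-lapse plate 3, 8, 11 or 16. Txnrd1 lay between 377.1 and 823.7 CPM (median 500.8) over the 16 time-lapse plates, against 233.1, 290.7, 233.5 and 243.9 CPM on the 4 random plates. Pgd lay between 293.99 and 825.3 CPM (median 566.8) over the 16 time-lapse plates, against 287.3, 281.3, 267.1 and 291.2 CPM on the 4 random plates. The Pgd ranges almost touched. Gstm1 had at least 22.6 CPM (median 37.2) on time-lapse plates, against 15.5, 16.6, 13.9 and 18.5 CPM on random plates. 

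Gsr and Prdx4, a reductase and a peroxidase, were called lower in T-profile wells. Gsr lay between 15.4 and 63.2 CPM (median 44.6) over the 16 time-lapse plates, against 88.02, 102.7, 84.9 and 110.5 CPM on the 4 random plates (-1.25, -2.76 to -0.42), and Prdx4 between 59.9 and 130.7 CPM (median 98.4) over the 16 time-lapse plates, against 260.5, 241.4, 217.2 and 248.9 CPM on the 4 random plates (-1.34, -2.10 to -0.73). Both stood below every random plate. Hmox1 lay between 11.4 and 369.99 CPM (median 83.6) over the 16 time-lapse plates, against 16.7, 40.3, 26.3 and 30.5 CPM on the 4 random plates (1.42, -1.73 to 4.39). Txnip lay between 15.1 and 83.6 CPM (median 30.6) over the 16 time-lapse plates, against 17.8, 6.71, 6.77 and 10.7 CPM on the 4 random plates (1.60, -0.23 to 3.45). For these genes the plates overlapped, so neither was called. Gclm (0.07, -1.05 to 1.49), Prdx1 (-0.10, -0.72 to 0.36) and Gpx1 (0.22, -0.34 to 0.75) were not called. Integrated stress response genes summed to 1010.04 to 1883 CPM on time-lapse plates and 540.1 to 726.4 CPM on random plates of this profile, which did not overlap. Immediate early genes summed to 200.9 to 1412.5 CPM on time-lapse plates and 175.6 to 198.9 CPM on random plates, again with no overlap. The 7 HPC line markers summed to 19.6 to 84.06 CPM in time-lapse T-profile wells, where all 7 had at least 3 counts, and to 0.732 to 2.38 CPM in random T wells, where Flt3, Spi1 and Hoxa9 were at 0. The part of these lists in the result, and that of the T line markers given above, was not tested. Rn45s took a median of 11.7% of counts per well in time-lapse T-profile and 8.05% in random T wells, and 13.9% in time-lapse and 9.21% in random leukemia wells.

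In leukemia wells Txnip lay between 12.6 and 60.9 CPM (median 28.5) over the 16 time-lapse plates, against 86.1, 88.2, 116.5 and 83.9 CPM on the 4 random plates (-1.78, -3.11 to -0.46), and was called lower. Nfe2l2 lay between 57.7 and 119.5 CPM (median 77.2) over the 16 time-lapse plates, against 30.5, 42.4, 32.2 and 42.2 CPM on the 4 random plates (1.18, 0.43 to 1.94), and was called higher. Gclc lay between 37.6 and 299.1 CPM (median 185.2) over the 16 time-lapse plates, against 50.7, 72.6, 60.6 and 46.9 CPM on the 4 random plates, which overlapped on the lowest time-lapse plate (1.56, -0.93 to 2.65). Nfe2l2 was the 1 member called higher in time-lapse wells of all 3 profiles. Hmox1 stayed low, at between 0 and 53.2 CPM (median 1.28) on time-lapse plates and 1.03, 3.35, 0 and 0 CPM on random plates. The 7 HPC line markers summed to 0 to 130.7 CPM on time-lapse leukemia plates, where all 7 had at least 3 counts, and to 0 to 1.12 CPM on random plates. Of the time-lapse leukemia wells, 5 fell in the cluster that held most time-lapse HPC wells. The part of such wells in the Hmox1 range was not tested. Gclm (0.79, -0.44 to 2.17), Txnrd1 (-0.03, -1.82 to 1.07), Prdx1 (-0.27, -1.18 to 0.33) and Gpx1 (-0.51, -2.61 to 0.78) were not called, each with overlapping plates.

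Well by well, Hmox1, Srxn1, Gclm and Gclc were found in most time-lapse HPC wells and Nqo1 in fewer. With each well thinned to 10000 counts, which left no well out, Hmox1 was found in 83.97% (78.95 to 88.2) of time-lapse and 6.31% (2.57 to 12.6) of random HPC wells (Clopper-Pearson 95% intervals). Without thinning the shares were 93.9% and 20.7%. In leukemia wells, which had next to no Hmox1, the thinned shares were 1.16% (0.379 to 2.69) of 430 time-lapse and 1% (0.0253 to 5.45) of 100 random wells. Srxn1 was found in 64.9% (58.8 to 70.7) of time-lapse and 7.21% (3.16 to 13.7) of random HPC wells, against 0.698% (0.144 to 2.03) of time-lapse and 0% (0 to 3.62) of random leukemia wells. Gclm was found in 90.1% (85.8 to 93.4) of time-lapse and 25.2% (17.5 to 34.4) of random HPC wells. For Gclc the shares were 92.7% (88.9 to 95.6) and 27.03% (19.04 to 36.3), and for Nqo1 30.2% (24.7 to 36.1) and 3.60% (0.990 to 8.97). These intervals count each well as independent and leave out the spread between plates. They describe the wells and do not compare the isolations. The unthinned shares in time-lapse and random HPC wells were 80.5% and 24.3% for Srxn1, 94.7% and 52.3% for Gclm, 97.7% and 63.1% for Gclc, and 52.3% and 4.50% for Nqo1.

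The cells also differed widely from each other. Per 10000 counts, time-lapse HPC wells held from 0 to 72 Hmox1 counts (median 4), up to 43 Gclm counts (median 6) and up to 73 Gclc counts (median 4). The variance of thinned counts over their mean, 1 for pure counting noise, was 20.3 for Prdx1 in time-lapse and 3.49 in random HPC wells. It was 8.70 and 1.27 for Gclc, 4.20 and 1.40 for Gclm, and 8.26 and 1.22 for Prdx6. Hmox1 had 8.74 and Srxn1 3.99 in time-lapse HPC wells. At the same relative spread this ratio rises with the mean count, and Prdx1, Gclc and Gclm stood higher in time-lapse wells. The median thinned count was 4 against 0 for Gclc and 6 against 0 for Gclm in time-lapse and random HPC wells. For these genes the pairs thus do not show whether relative spread between cells differed between the isolations. Prdx6 had a median of 2 in both, but its highest well held 62 counts in time-lapse and 6 in random HPC wells. Its equal medians thus do not mean equal mean counts, with which the ratio rises. The 27 time-lapse HPC wells with the most counts of a gene held 38.8% of its Hmox1, 45.5% of Srxn1, 36.2% of Prdx1, 36.6% of Gclc, 28.8% of Gclm and 40.6% of Prdx6 counts. The variance was taken around plate means. The ranges, the medians and the shares of counts in the top wells hold differences between plates as well as between cells. By plate, the thinned share of wells with Hmox1 ran from 30% to 100%, and Hmox1 was lowest on time-lapse plate 14 and highest on plate 11.

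**Figure D3:**
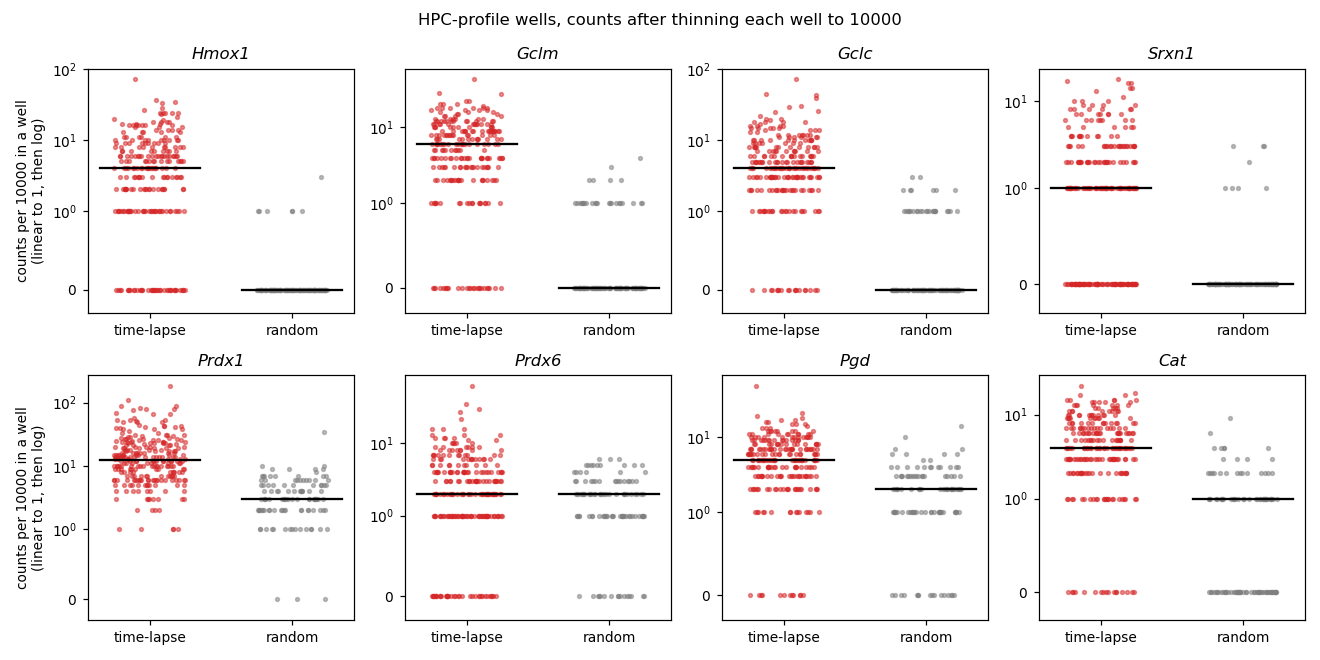
Counts per 10000 of 8 members in every HPC-profile well, time-lapse on the left and random on the right of each panel, on an axis that is linear to 1 and log above, with a line at the median. The median Hmox1 count is 4 in time-lapse wells and 0 in random wells, and single time-lapse wells reach 72.

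Within plates, members of the response varied together from cell to cell in time-lapse HPC wells. Over all time-lapse HPC wells (10 to 24 a plate on 16 plates), with plate means removed and for the 31 members with at least 1 count per well on average, the highest Pearson correlations of log2 (CPM + 1) were those of Prdx1 with Pgd (0.63), Gclc with Pgd (0.61), Gclc with Gclm (0.59) and Prdx1 with Taldo1 (0.57). Gclm also went with Pgd (0.52), Prdx1 (0.51) and Hmox1 (0.47). Of the member pairs 60 (12.9%) reached 0.3, against 1.07% of all pairs of genes at that level. Not every member took part: the median over member pairs was 0.07, against 0.05 over all gene pairs, and the lowest values were those of Gpx1 with Osgin1 (-0.29) and Prdx1 with Prdx2 (-0.28). In random HPC wells (21 to 32 a plate on 4 plates) 13 member pairs, 4% of them, reached 0.3, against 3.14% of all pairs. Only 26 members averaged 1 count per well there, without Hmox1, Srxn1, Nqo1, Osgin1 and Gsr. Low counts also damp correlations, so the lower share in random wells does not show that members varied together less. In time-lapse T-profile wells 17 pairs of 35 members reached 0.3 (2.86%, against 0.199% of all pairs), led by Gclm with Txnrd1 (0.49). Random T wells also had 17 such pairs, of 32 members (3.43%, against 2.42%). In 430 time-lapse leukemia wells 5 pairs of 29 members did (1.23%, against 0.105%), led by Prdx1 with Txn1 (0.39). The 100 random leukemia wells had 13, of 27 members (3.70%, against 0.896%). All are across cells that share libraries, and depth enters them unequally: the correlation with the log2 total of the well was -0.01 for Hmox1, 0.01 for Pgd, 0.09 for Gclc, 0.11 for Gclm and -0.13 for Prdx1, but 0.48 for Prdx4 and 0.41 for Txn1 in time-lapse HPC wells.

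**Figure D4:**
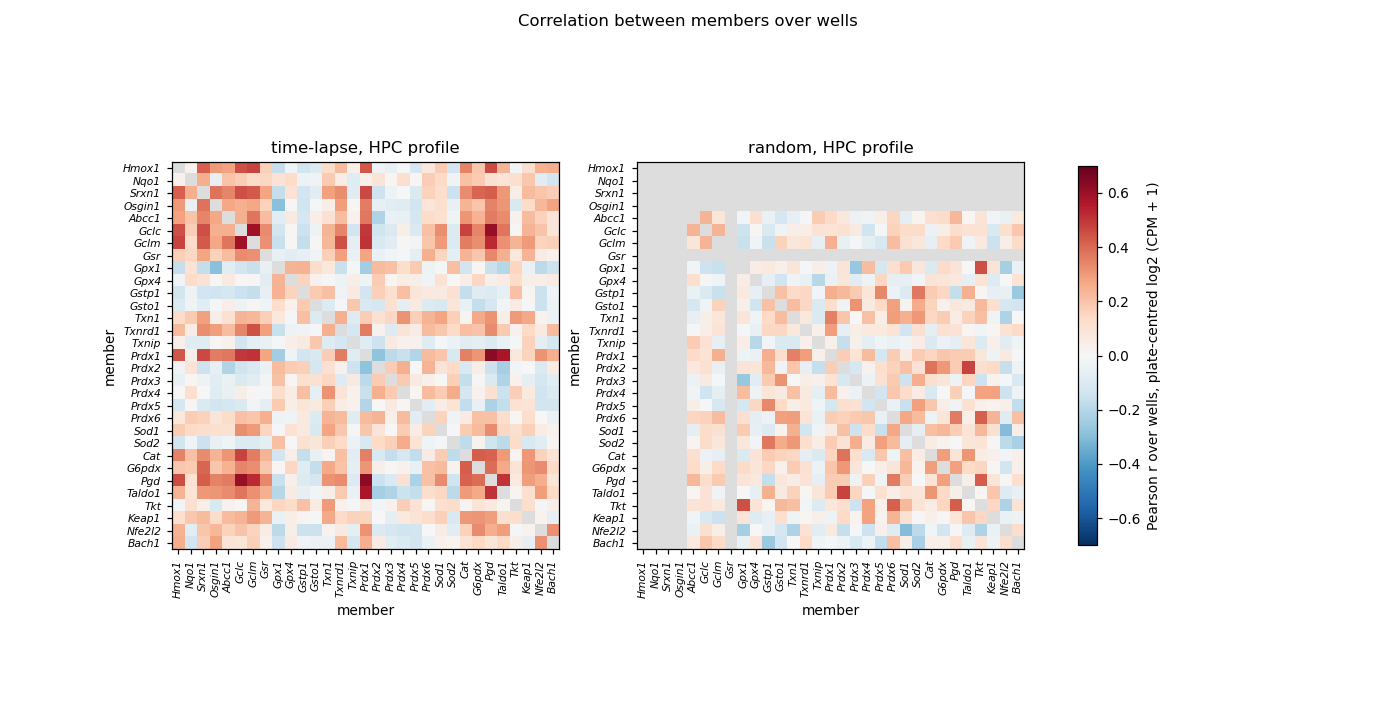
Pearson correlations between members over time-lapse (left) and random (right) HPC-profile wells, with plate means removed; grey marks the diagonal and members under 1 count per well. The block of Gclc, Gclm, Pgd and Prdx1 is strong in time-lapse wells, where Prdx1 and Pgd reach 0.63.

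The other genes of the pathway, a list of 97, were called in both directions between lines. In T against leukemia target wells 15 of 65 measured were called higher (14.8% of all genes) and 7 lower (12.2%), those with the largest differences being Bach2 (-6.88), Ggt1 (6.52), Akr1b8 (5.28) and Ptgr1 (5.17). In HPC against leukemia wells 8 of 61 were called higher (13.1% of all genes) and 11 lower (12.7%), among them Idh2 (6.80), Cbr1 (-5.47) and Mgst2 (4.40). In HPC against T wells 8 of 68 were called higher (13.2% of all genes) and 19 lower (15.3%), among them Ggt1 (-5.62), Akr1b8 (-4.93), Ephx1 (-3.85) and Bach2 (3.77). Between target and FACS wells none was called in T or leukemia wells, and 6 of 63 were called lower in HPC wells (3.49% of all genes). In time-lapse against random HPC wells 5 of 65 were called higher (2.03% of all genes), namely Sqstm1 (2.31), an autophagy receptor that binds KEAP1, the NRF2 partner Mafg (2.30), Esd (2.07) and the ferritin chains Fth1 (1.23) and Ftl1 (1.06), and 1 lower (4.47%), Rpia (-1.86). In T-profile wells 5 of 66 were called higher (6.99% of all genes), led by Cth (4.08), and 7 lower (8.26%), led by Ggt1 and Akr1b8 (both -2.38). In leukemia wells 2 of 55 were called higher (0.544%), Mafg (1.17) and Sqstm1 (1.28), and 1 lower (0.453%). Sqstm1 was among those called higher in all 3 profiles, at 1.11 in T-profile wells.

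In PBMC, set beside the lines as a reference in another table with no fold drawn between them, the wells of 8 plates held 793980 counts, and 32 of the 38 members had at least 10 counts. Me1 was at 0. Clusters made without the members placed most wells in a T cell-like class, and gave 89 B cell-like wells, 28 NK cell-like wells and 24 wells that could not be named. Hmox1 stood at 207.8 CPM (Poisson 95% interval 177.3 to 242.1) over all wells, at 2578 CPM (Poisson 95% interval 2189 to 3016) in the unnamed wells and at 12.3 CPM, from 9 counts, in all other wells. It was found in 6 of the 24 unnamed wells, and most of its counts there came from 2 wells of 1 plate, the highest with 79. Prdx1 counts of the class likewise came mostly from 2 wells of 1 plate, and Prdx1 stood at 4263 CPM (Poisson 95% interval 3759 to 4816) in the unnamed wells and 258.4 CPM in all others, and Srxn1 had 23 of its 26 counts in the unnamed wells, 18 of them in 2 wells. These intervals cover counting error only, so the class values of these genes describe a few wells. The unnamed wells had a median total of 1438.2 counts, 39.1% Rn45s against 19.5% to 22.4% in the other classes, and neutrophil markers at 6717 CPM and monocyte markers at 2407 CPM. The top genes of this cluster were led by Scgb1a1 and also held Sftpc and Scgb3a2, beside S100a8, S100a9 and Cd14. Scgb1a1, Sftpc and Scgb3a2 are on none of the blood cell marker lists, so the marker sums do not name these wells. Gclc, in contrast, was found across the lymphocyte classes, at 393.1 CPM in T cell-like, 442.4 CPM in B cell-like and 185.01 CPM in NK cell-like wells. Gclm was at 43.5 CPM in T cell-like and 33.6 CPM in B cell-like wells, from 22 and 6 counts. Gpx1 had 268.8 CPM in B cell-like, 104.7 CPM in T cell-like and 82.2 CPM in NK cell-like wells, and Gsto1 had 10 counts in all PBMC wells.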

How the data were processed

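The values deposited by the authors are expected counts, estimates of the molecules of each gene in a well, from a primer with a molecular barcode per the labels' protocols. Per the submitters' processing notes, bcl2fastq, STAR and the build mm10 were used. How counting and filtering were done, and all versions, is not given in the sources used here. About 5.31% (cell lines) and 5.15% (PBMC) of positive values are not whole, so values were rounded only for thinning, and no count model was fitted, since each group is 1 sample.

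The members, lists and thresholds were chosen with earlier results of these data known. Wells needed 1000 detected genes (cell lines, all 1836 passed) or 300 (PBMC, 339 of 346). Target labels gave 73 HPC, 120 T and 126 leukemia wells. Profiles gave 262 HPC, 316 T and 430 leukemia wells in time-lapse, 111, 119 and 100 in random and 52, 64 and 63 in FACS plates. Of the PBMC wells, 198 clustered as T cell-like, and 89 as B cell-like, against 28 as NK cell-like, with 24 unnamed. Counts were summed per plate and line (at least 5 wells), scaled to a sum of 1e6 per plate and line (CPM) and compared as log2 (CPM + 1), within plates between lines and as means over plates otherwise. Calls needed 2-fold, the same side on every plate (or no overlap of plates) and 10 CPM in 1 group. Lines were assigned by Spearman correlation with target means, own plate left out. The members and the pathway list were left out of profiles and clusters (Leiden, 2000 variable genes, 30 components, 15 neighbours). A well was called mixed at 20% or more of a second line's score. Shares carry exact 95% intervals, and a group at 0 was set to 3 counts in all. Values per plate are given for every called member and for Hmox1, Txnip, Gclm, Txnrd1, Prdx1 and Gpx1, with other members by difference, range or count, and at most the 4 called pathway list genes with the largest differences. Fth1 and Ftl1 of the HPC comparison, and Mafg and Sqstm1 across profiles, were named beyond that after their values were seen. Promoters are from a table of RefSeq starts on GRCm38.p6, in which 32 of the 38 members matched. Alternatives were the minimum level, the fold, the pseudocount, another scaling, mean CPM over wells, labels or clusters in place of profiles, mixed wells left out, and each plate left out. The calling step was tested on simulated data. Tools were Python 3.11.15, pandas 2.3.3, scipy 1.17.1 and scanpy 1.11.5.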

Additional observations from a re-analysis of the deposited data

How the results depend on the processing

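No paired analysis was possible because every group counts as 1 sample and no result comes from a test, although differences between lines were taken within plates. Each setting was changed alone, and no called direction reversed. Counts of called members stayed within 1.5 times in all recounts but 23, which were higher. The share of all genes called under each changed setting is not given here. The recounts below therefore show how calls depend on the settings and are no result about the members. Target against FACS, with no member called by profile, gave 1 higher (Slc7a11) and 5 lower in leukemia wells, 2 higher and 2 lower in T wells, and 3 higher and 10 lower in HPC wells when FACS wells were taken by their labels, which do not follow the profiles. There the 1.5-fold threshold gave 1 lower in leukemia (Nfe2l2) and 1 higher (Gclc) and 2 lower (Gstp1, Nfe2l2) in HPC wells, median-of-ratios scaling 1 higher in T wells (Hmox1), and no minimum level 2 higher in HPC wells (Me1, Osgin1). Leaving out 1 plate gave 0 to 3 members higher in T, 0 to 1 higher in HPC, 0 to 1 lower in leukemia, 0 to 1 lower in T and 0 to 2 lower in HPC wells. Between time-lapse and random wells, asking for 85% of plates gave 3 higher in leukemia wells (Nfe2l2, Gclc and Osgin1), and leaving out 1 plate 1 to 2, with Gclc gained without time-lapse plate 10. The 1.5-fold threshold gave 4 lower in T-profile (Nqo1 and Txn1 gained) and 1 lower in HPC wells (Prdx5), which leaving out 1 plate moved between 0 and 1. For the 10 members higher in time-lapse HPC wells the range without 1 plate was 10 to 14. The cause was not tested. Assigning T-profile time-lapse wells by cluster could not be run, since none lay in the cluster of the T line. Thinned to 20000 counts instead of 10000, which left out 39 time-lapse and 13 random HPC wells, 52 ratios of variance to mean moved. Of those named, Srxn1 was 6.24 in time-lapse HPC wells, and Gclm 5.52 in time-lapse and 2.41 in random HPC wells. Prdx1 was 20.4 in time-lapse and 2.46 in random HPC wells. Depth limits members under 10 CPM, whose log2 differences rest on the 1 CPM added.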

Other observations

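Some genes outside the members followed Gclm from cell to cell in time-lapse HPC wells. This list was read off after the values were seen, and gives Pearson correlations over these wells with plate means removed, across cells that share libraries. Of 4840 genes ranked, the highest were Gclc (0.59), Fth1 (0.56) and Esd (0.56), followed by Cyb5a (0.54), which encodes cytochrome b5. Fth1 is the ferritin heavy chain and Ftl1 (0.47) the light chain. Among the first 20 were 6 of the 30 other members, together with Sqstm1 (0.47), Akr1a1 (0.45), an aldehyde reductase, Lipa (0.45), the lysosomal acid lipase, and Slc48a1 (0.40), a heme transporter. Nqo1, often used to read out NRF2, was not among the first 40.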
